A study of Rattus norvegicus with 8 samples.

Results

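The immediate-early response genes are a set of 10 rat genes, Fos, Fosb, Jun, Junb, Egr1, Atf3, Klf6, Ier2, Ier3 and Dusp1, that were chosen by name and found on the array through the RefSeq accessions of its probes. All 10 were matched, each to 1 probe, out of 15637 genes that received a name in this way. Total RNA came from the kidney at day 28, from male rats whose labelled age is 10 weeks, in 4 saline samples and 4 samples of colistin at 30 mg/kg. Colistin, an antibiotic of the polymyxin class, can harm the kidney tubule, and no other agent or allele is named for either group. The strain, the route and the dosing schedule are not given in the sources used here, and no label says whether different samples are different animals. The p-values therefore cover only the variation among these 8 samples, and some of that variation may be technical. The labels call the tissue kidney, and all 8 proximal tubule markers were well above background on all 4 arrays of each group.

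Immediate-early genes are transcribed within minutes of a stimulus, without new protein synthesis, through factors such as serum response factor with its ternary complex partners and CREB, which mitogen-activated protein (MAP) kinases switch on. Fos, Fosb, Jun and Junb encode subunits of the AP-1 transcription factor, and Atf3 encodes a stress-induced relative that pairs with Jun proteins. Egr1 and Klf6 encode zinc finger transcription factors, Ier2 a nuclear protein, Ier3 a stress-induced regulator of cell survival, and Dusp1 a phosphatase that switches MAP kinases off again. In kidney they are known for a rapid and short-lived response to ischaemia and toxins.

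Of the 10 genes, 9 were bright enough to be tested, and 1 of them, Klf6, was higher after colistin, while 0 were lower (limma with Benjamini-Hochberg adjustment over all 12378 genes tested). Over all genes tested 2.02% were called, 1.47% higher and 0.549% lower, or 182 and 68 genes; with normexp background correction the split was 682 and 2667, and without scaling between arrays it was 1005 and 38. The call of Klf6 was a 26.3-fold rise. At an unadjusted p under 0.05 there were 7 of the 9 members, against 22.7% of all genes. The members were chosen with earlier results of these data known, so shares set beside all genes describe them and test nothing. The groups did not overlap, with every array of one group beyond every array of the other, for 3 members that were higher (Jun, Atf3 and Klf6) and 1 that was lower (Junb), where 6.91% and 11.7% of all genes did so, 18.6% in all. The median log2 fold change of the 9 genes was 2.52, and that of all genes was -0.14 (-0.34 with normexp and 0.64 without scaling). Members had a positive log2 fold change in 6 cases and a negative one in 3 (Fos, Fosb and Junb; without scaling Fosb turned positive), and 45.2% of all genes were positive. Levels are given as log2 of the processed signal minus the 75th percentile of the same array, so that 0 marks a probe as bright as that percentile. Because probes differ in how well they bind, levels are compared between arrays and not between genes.

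**Figure D1:**
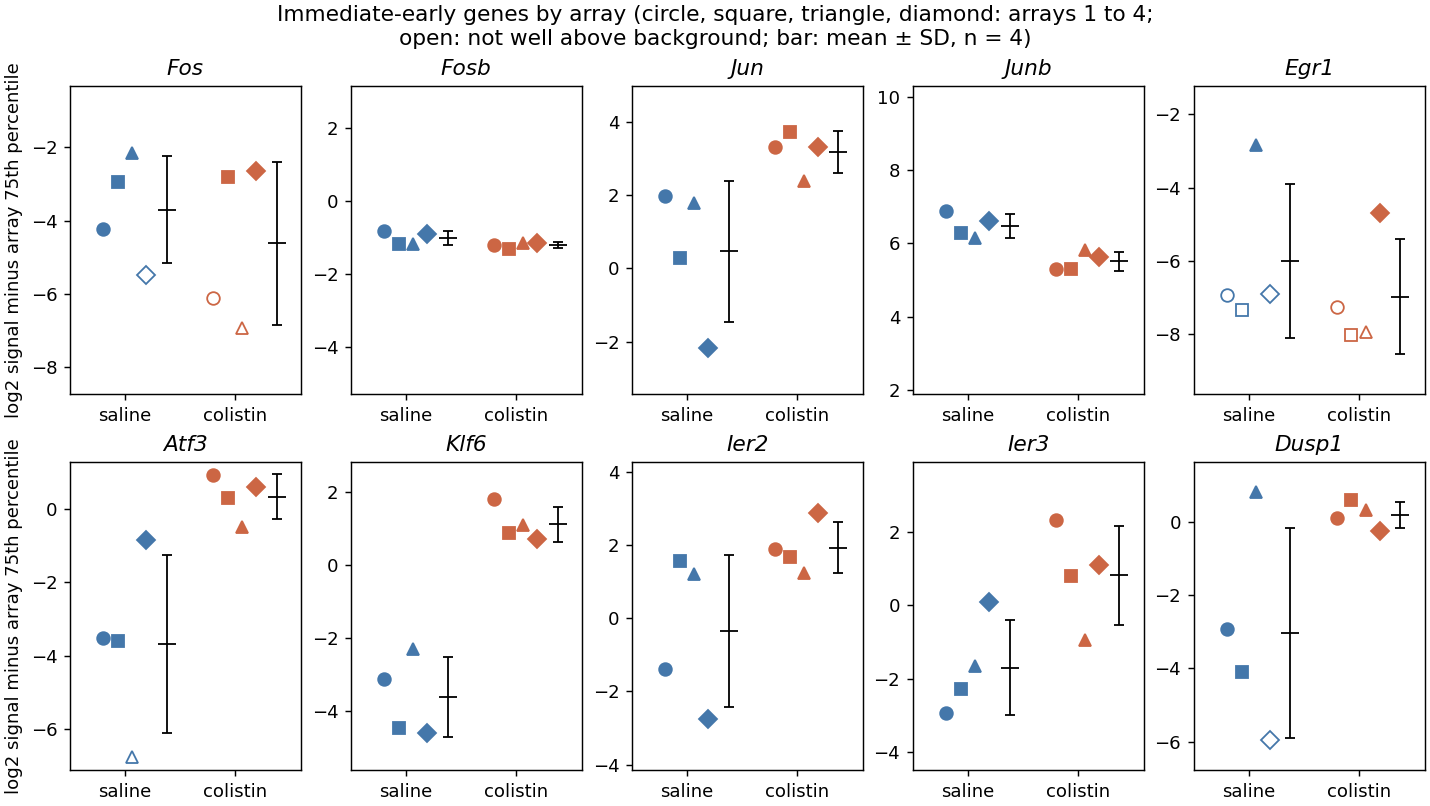
Level of each immediate-early gene on each array, as log2 processed signal after subtracting the 75th percentile of its array, for saline (blue) and colistin (orange); symbols mark arrays 1 to 4, open symbols are not well above background, and black bars give mean ± SD (n = 4). Every panel spans the same number of log2 units; the colistin arrays of Klf6 all lie at 0.70 or above and its saline arrays at -2.30 or below, while the saline arrays of Dusp1 run from -5.97 to 0.82.

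Several properties of the arrays bear on these values. The 75th percentile used for scaling was 156 to 197 intensity units on saline arrays and 271 to 317 on colistin arrays, so the colistin arrays were brighter before scaling. Saline arrays correlated with their own group at 0.776 to 0.826 on average, and colistin arrays at 0.872 to 0.895. Saline array 4 had the lowest value, 0.776. Spots well above background made up 69.3% to 75.8% on saline arrays, lowest on saline array 4, and 79.1% to 83.9% on colistin arrays. Each of the 3 slides carried both treatments: saline arrays 1 and 4 with colistin array 2 on slide 1, saline array 2 with colistin array 3 on slide 2, and saline array 3 with colistin arrays 1 and 4 on slide 3. Slide and position were read from the array identifier in the headers, which do not name them as such. If its last digit is the position, saline arrays lay at 1 or 2 and colistin arrays at 3 or 4, and position and treatment cannot be told apart. In whole kidney RNA, fewer cells of a type and less RNA per cell cannot be told apart either.

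Klf6 rose. The gene encodes a Kruppel-like factor that binds GC-rich promoters and is induced early after tissue injury. Its levels were -3.10, -4.44, -2.30 and -4.59 on saline arrays 1 to 4 and 1.79, 0.87, 1.08 and 0.70 on colistin arrays 1 to 4. The lowest colistin array therefore stood 3.0 log2 units above the highest saline array. The probe was well above background on all 8 arrays, with processed signals of 6.51 to 40.0 in saline and 517 to 1054 in colistin. This gave a log2 fold change of 4.72 ± 0.57 (SE, n = 4 per group, adjusted p = 0.00946, limma), with a 95% interval from 3.41 to 6.02. It was the 39th smallest p-value of the 12378 genes. Within slides 1, 2 and 3 the difference was 4.71, 5.52 and 3.54. Fits without 1 of the arrays gave adjusted p-values from 0.00811 to 0.0361. With slide as a block the adjusted p of Klf6 was 0.0571, at a log2 fold change of 4.51, in a fit that called 40 genes in all. With normexp, a background correction that pulls dim signals together, the log2 fold change was 2.62 (adjusted p = 0.00222). The saline signals were dim, so the size of the rise of Klf6 is uncertain.

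The stretches upstream of the start site are shown for the 4 members with a RefSeq entry whose levels are described in most detail (250 bases up to the annotated start, build GRCr8, 5′ to 3′ on the strand of the gene). Capitals mark matches, on either strand, to the CArG box bound by serum response factor and to TGACG, the core of the cyclic AMP response element, whose full form is TGACGTCA. No coordinates are given for the probes, whose array design used an older build.
Klf6, chr17:69458479-69458728, minus strand: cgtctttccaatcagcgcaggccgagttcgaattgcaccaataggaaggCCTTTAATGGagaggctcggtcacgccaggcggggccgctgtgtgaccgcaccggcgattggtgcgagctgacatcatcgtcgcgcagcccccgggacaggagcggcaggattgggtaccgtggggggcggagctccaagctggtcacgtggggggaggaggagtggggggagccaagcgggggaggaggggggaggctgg
Junb, chr19:40080876-40081125, plus strand: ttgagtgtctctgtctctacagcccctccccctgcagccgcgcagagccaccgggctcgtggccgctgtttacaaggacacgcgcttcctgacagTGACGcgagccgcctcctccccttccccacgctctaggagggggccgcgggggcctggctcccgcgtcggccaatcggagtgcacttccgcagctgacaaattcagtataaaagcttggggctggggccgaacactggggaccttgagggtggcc
Ier2, chr19:40399123-40399372, plus strand: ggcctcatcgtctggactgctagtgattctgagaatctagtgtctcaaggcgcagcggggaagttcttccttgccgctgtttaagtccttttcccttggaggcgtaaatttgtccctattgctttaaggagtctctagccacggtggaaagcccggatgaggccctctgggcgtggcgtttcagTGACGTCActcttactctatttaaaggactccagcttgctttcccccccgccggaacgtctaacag
Dusp1, chr10:17184603-17184852, plus strand: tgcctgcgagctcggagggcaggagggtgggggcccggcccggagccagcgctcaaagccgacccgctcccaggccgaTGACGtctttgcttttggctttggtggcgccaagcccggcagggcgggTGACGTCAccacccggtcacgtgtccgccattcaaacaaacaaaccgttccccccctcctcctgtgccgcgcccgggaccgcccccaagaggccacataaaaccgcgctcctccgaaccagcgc

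Klf6 held a CArG box, which begins 201 bases before the start, and no TGACG. Ier2 and Dusp1 each held a full TGACGTCA, beginning 66 and 124 bases before the start, and Dusp1 held a further TGACG at 172. Junb held 1 TGACG, at 155, and no full element. Over all 33469 promoters of the same length a CArG box was present in 1.5%, TGACGTCA in 1.59% and TGACG in 18.2%. The AP-1 letters TGANTCA, present in 6.34%, and the EGR letters GCGNGGGCG, present in 4.29%, matched none of these 4 windows. These matches are letters in a window and do not show binding. RefSeq entries were found for 6 of the 10 members, which also include Fosb and Egr1. Egr1 held 2 CArG boxes and 2 matches to TGACG, and Fosb held neither motif. Fos, Jun, Atf3 and Ier3 had none in the table used.

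Among the AP-1 subunits, Jun and Junb separated the groups in opposite directions and Fos and Fosb did not separate them. None of these 4 genes passed over all genes. Jun is the main transactivating subunit. Its levels were 1.98, 0.27, 1.78 and -2.18 on saline arrays 1 to 4 and 3.31, 3.73, 2.38 and 3.31 on colistin arrays 1 to 4. All colistin values lay above all saline values, by 0.40 log2 units at the nearest pair, and saline array 4 was far below the rest. The log2 fold change of Jun was 2.72 ± 0.89 (adjusted p = 0.149, limma), with a 95% interval from 0.67 to 4.77. With normexp Jun gave 2.38 and passed (adjusted p = 0.0331), in a fit that called 5.51% of all genes higher.

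Junb, a subunit that can restrain Jun, lay lower after colistin in relation to the rest of the array. Levels were 6.88, 6.27, 6.15 and 6.60 on saline arrays 1 to 4 and 5.29, 5.29, 5.83 and 5.63 on colistin arrays 1 to 4. The groups did not overlap, and the SDs were small, 0.33 in saline and 0.26 in colistin. In the fit this was -0.96 ± 0.30 (log2 fold change, adjusted p = 0.138, limma). Before scaling, the processed signals of Junb overlapped, at 13963 to 18349.6 in saline and 11980.4 to 15708 in colistin. Without scaling between arrays the log2 fold change of Junb was -0.18 (adjusted p = 0.699), so the size of this difference rested on the scaling. With normexp Junb passed at -0.81 (adjusted p = 0.0338), in a fit that called 21.5% of all genes lower. With an intensity trend in the variance Junb passed at -0.96 (adjusted p = 0.0499).

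Fos, the partner that Jun needs for the strongest DNA binding, was dim and scattered in both groups. Processed signals of Fos were 8.27, 25.0, 44.5 and 3.51 on saline arrays 1 to 4 and 4.41, 43.6, 2.23 and 50.8 on colistin arrays 1 to 4. The probe was not well above background on saline array 4 or on colistin arrays 1 and 3. On the log2 scale the colistin values formed a high pair (-2.82 and -2.64) and a low pair (-6.11 and -6.92), and the saline values, from -5.48 to -2.14, lay largely between them. Fos gave a log2 fold change of -0.92 ± 1.16 (adjusted p = 0.652, limma), and its 95% interval, from -3.60 to 1.75, covers changes of either sign. Fits without 1 array gave -1.59 to -0.16. Slide 1 gave a difference of 2.04 and slides 2 and 3 gave -3.98 and -2.24, so even the sign for Fos differed between slides. These differences rest on a single colistin array on slides 1 and 2 and a single saline array on slides 2 and 3. On slide 3 colistin arrays 1 and 4 stood at -6.11 and -2.64, so Fos also scattered within a slide.

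Fosb had the narrowest spread of the set. Its levels ran from -1.17 to -0.82 on saline arrays and from -1.33 to -1.14 on colistin arrays, and the groups overlapped. Fosb gave a log2 fold change of -0.19 ± 0.26 (adjusted p = 0.678, limma), with a 95% interval from -0.78 to 0.40. The processed signals of Fosb were 84.1 to 88.3 in saline and 122 to 144 in colistin, and without scaling the log2 fold change turned to 0.59 (adjusted p = 0.159). The SD of Fosb was at or above that of only 3.42% of genes in saline and 1.01% in colistin.

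Atf3 had the second largest fold change of the set and did not pass. Levels were -3.51, -3.59, -6.78 and -0.83 on saline arrays 1 to 4 and 0.93, 0.30, -0.48 and 0.61 on colistin arrays 1 to 4. Every colistin array lay above every saline array, although saline array 4 came within 0.36 log2 units of colistin array 3. The probe was not well above background on saline array 3. Together these gave a log2 fold change of 4.02 ± 1.1, or 16.2-fold (adjusted p = 0.105, limma), with a 95% interval from 1.49 to 6.55. Without saline array 4 Atf3 passed at 4.97 (adjusted p = 0.0388), it passed with normexp at 1.84 (adjusted p = 0.0327), and it passed without scaling at 4.8 (adjusted p = 0.0348). Leaving out saline array 3, the dimmest, gave 2.99 (adjusted p = 0.107).

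Egr1, which is among the fastest induced genes of the class, was at background on most arrays and was not tested. It was well above background on saline array 3, at a processed signal of 27.4, and on colistin array 4, at 12.3. On the other 6 arrays its processed signal lay between 1.11 and 2.01. One array of each group therefore stood apart, and no fold change is given.

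Ier2 and Ier3 were the 2 members printed as 10 spots each, so that the error within an array can be given for them. The SD between spots on 1 array, on the log2 scale, was 0.018 to 0.13 for Ier2 and 0.046 to 0.16 for Ier3. Between arrays the SD of Ier2 was 2.08 in saline and 0.70 in colistin, and that of Ier3 was 1.30 and 1.35. Spot error covers the printing and scanning of 1 array and not the sample. Levels of Ier2 were -1.40, 1.55, 1.20 and -2.76 on saline arrays 1 to 4 and 1.88, 1.68, 1.23 and 2.87 on colistin arrays 1 to 4. Saline array 2 lay within the colistin range, so the groups overlapped. Saline array 3, at 1.20, lay just below the lowest colistin value, 1.23, and saline arrays 1 and 4 stood far below it. The log2 fold change of Ier2 was 2.27 ± 0.97 (adjusted p = 0.214, limma). It was 1.47 without saline array 4 (adjusted p = 0.303) and 0.54 without saline arrays 1 and 4 (adjusted p = 0.596). Levels of Ier3 were -2.93, -2.29, -1.66 and 0.09 on saline arrays 1 to 4 and 2.34, 0.79, -0.94 and 1.09 on colistin arrays 1 to 4. The overlap of Ier3 came from saline array 4 and colistin array 3. The log2 fold change of Ier3 was 2.52 ± 0.84, or 5.74-fold (adjusted p = 0.152, limma).

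Dusp1 differed more between the saline arrays than between the groups. Its levels were -2.91, -4.10, 0.82 and -5.97 on saline arrays 1 to 4 and 0.11, 0.59, 0.31 and -0.26 on colistin arrays 1 to 4. The colistin arrays lay within 0.85 log2 units of each other, the saline arrays spanned 6.79, and saline array 3 was the highest of all 8. The probe was not well above background on saline array 4. Dusp1 gave a log2 fold change of 3.23 ± 1.26 (adjusted p = 0.188, limma), with a 95% interval from 0.33 to 6.13. Without saline array 3 Dusp1 passed at 4.52 (adjusted p = 0.0333); without saline array 4 it was 2.25 (0.264), without saline arrays 1 and 4 1.83 (0.482), and with normexp 1.23 (0.111).

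**Figure D2:**
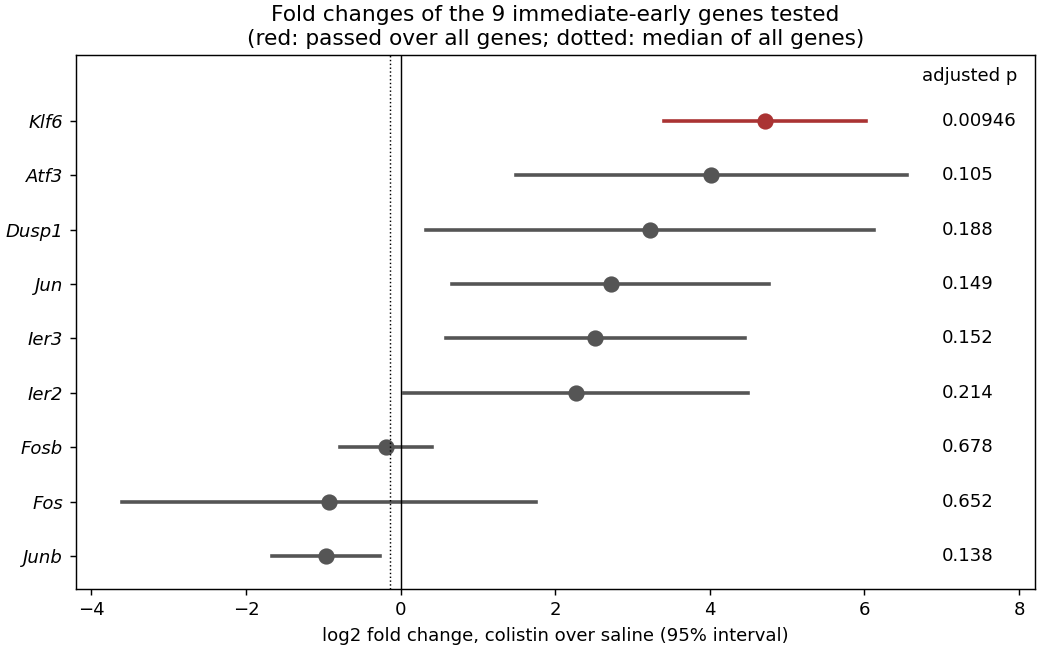
Log2 fold change of colistin over saline for the 9 genes tested, with 95% intervals from limma and the adjusted p over all 12378 genes at the right; red marks the gene that passed, and the dotted line is the median of all genes, -0.14. Klf6 has the largest fold change and the interval that begins highest, at 3.41; the intervals of Fos and Fosb include 0.

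The spread was larger among saline than among colistin arrays for 7 of the 9 genes, all except Fos and Ier3. Over all genes this held for 67.2%. The median SD of the 9 genes was 1.47 in saline and 0.57 in colistin, beside medians over all genes of 0.84 and 0.59. For Dusp1 the saline SD of 2.87 was at or above that of 96.3% of genes, and for Atf3 the saline SD of 2.43 was at or above that of 92.5%. Saline array 4 held the lowest saline value for 5 of the 9 genes, and saline arrays 1 and 3 each held the highest for 3. Among all genes tested saline array 4 was lowest for 28.6%, saline array 1 highest for 29.1% and saline array 3 highest for 20.4%. In the colistin group array 3 held the lowest value for 5 of the 9 genes, and for 21.6% of all genes. Low and high arrays were not the same for every member: saline array 4 was the highest saline array for Atf3 and Ier3 and the lowest for Fos, Jun, Ier2, Klf6 and Dusp1.

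Within slides, Jun, Atf3, Ier3 and Klf6 had a positive difference on all 3 slides and Junb a negative one on all 3. For Jun, Atf3, Klf6 and Junb, whose groups do not overlap, a sign shared by all slides follows from that. Ier3 gave 2.22, 1.35 and 3.38 on slides 1, 2 and 3. Ier2 gave 3.76, -0.32 and 1.18, and Dusp1 gave 5.03, 4.41 and -0.90. The difference for these 2 genes therefore turned negative on 1 slide each. On slides 2 and 3 the saline side is a single array, so that these values rest on saline array 2 for Ier2 and on saline array 3 for Dusp1. With slide as a block, log2 fold changes of the members that did not pass kept their signs: -1.16 for Fos, -0.16 for Fosb, 2.53 for Jun, -0.90 for Junb, 4.49 for Atf3, 1.71 for Ier2, 2.40 for Ier3 and 2.71 for Dusp1, at adjusted p-values of 0.167 (Atf3) to 0.779 (Fosb) in limma.

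**Figure D3:**
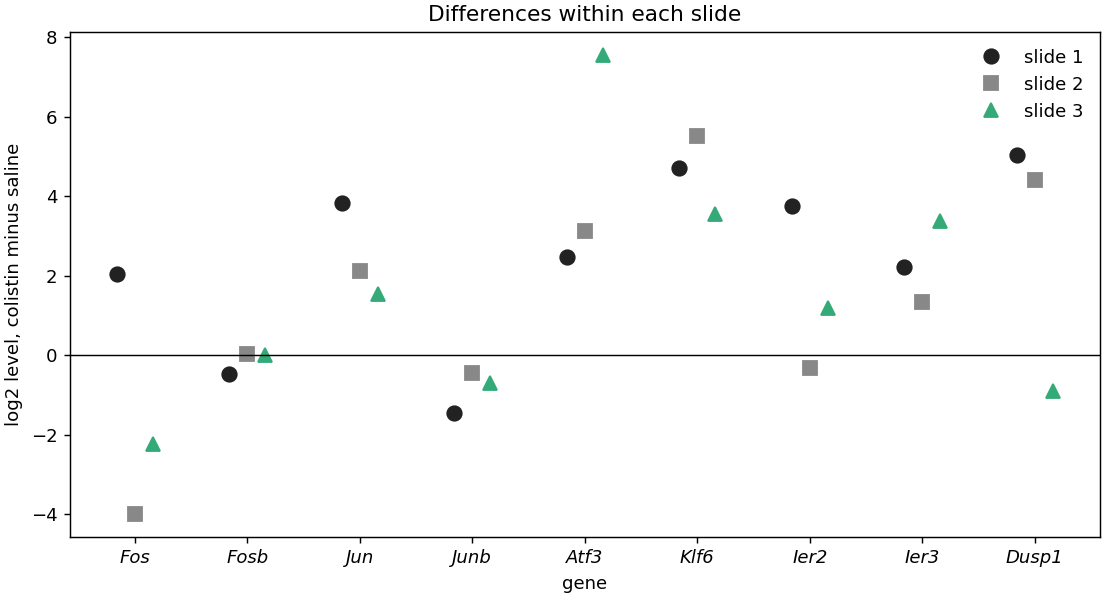
Colistin minus saline level (log2 units) of each of the 9 genes within slides 1 (circles), 2 (squares) and 3 (triangles). Klf6, Jun, Atf3 and Ier3 lie above 0 on every slide; Fos, Ier2 and Dusp1 lie on both sides of 0.

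Leaving out 1 array at a time showed how far each call depended on single samples. Klf6 passed in all 8 such fits. Atf3 and Dusp1 passed in 1 fit each, and Fos, Fosb, Jun, Junb, Ier2 and Ier3 in 0. The lowest adjusted p over these fits was 0.095 for Ier3, 0.13 for Jun, 0.145 for Junb and 0.159 for Ier2.

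**Figure D4:**
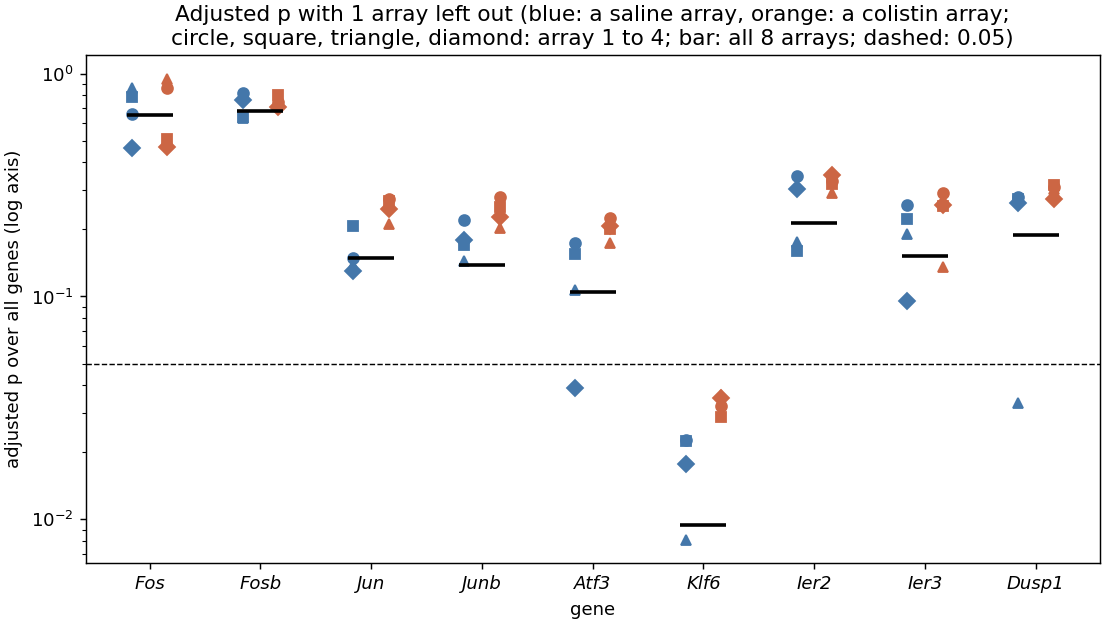
Adjusted p over all genes (log axis) for the 9 genes with each array left out in turn; blue symbols leave out a saline array and orange symbols a colistin array, symbols mark the array number, black bars use all 8 arrays and the dashed line is 0.05. Klf6 stays below the line throughout, at most 0.0361; Atf3 without saline array 4 and Dusp1 without saline array 3 are the other points below it.

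Genes of the wider AP-1 and early-response families are counted beside the shares over all genes, 2.02% called and 22.7% at an unadjusted p under 0.05. Their lists too were chosen with earlier results of these data known, so the shares are descriptions and not tests. Of 12 other AP-1 and small Maf factors tested, 1 rose (8.33%) and 0 fell, with 5 at an unadjusted p under 0.05 (limma). The riser was Fosl1, which encodes Fra-1, a late and more stable Fos relative. Its levels were -4.31, -6.28, -4.99 and -4.65 on saline arrays 1 to 4 and -1.39, -2.47, -2.17 and -2.14 on colistin arrays 1 to 4, without overlap. Fosl1 rose by 3.01 ± 0.48 on the log2 scale (adjusted p = 0.0238), but its probe was well above background on only 2 of 4 saline arrays and entered the test through the colistin arrays alone, where it is high. With normexp it was 0.51 (adjusted p = 0.0695), and without saline array 3 or any 1 colistin array the adjusted p was 0.052 to 0.0719, so its size is uncertain. Fosl2, which encodes Fra-2, gave 2.97 ± 1.01 (adjusted p = 0.156), and saline array 3, at 1.52, lay within the colistin range of 0.30 to 2.25. Without saline array 3 Fosl2 passed at 4.04 (adjusted p = 0.017). A second Fosl2 probe gave 3.76 ± 0.45 and passed in the fit over 23657 probes (adjusted p = 0.0122). Jund, the Jun family member most steadily expressed in resting cells, gave 1.33 ± 0.34 (adjusted p = 0.0949), without overlap. The median log2 fold change of the list was 0.29.

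Among 14 other early transcription factor genes tested, 3 rose (21.4%, against 1.47% of all genes) and 0 fell, with 6 at an unadjusted p under 0.05 (limma). Klf4, a relative of Klf6 tied to epithelial differentiation, had levels of -4.72, -7.45, -6.41 and -3.37 on saline arrays 1 to 4 and -0.91, -1.25, -0.97 and -1.30 on colistin arrays 1 to 4. The colistin arrays agreed closely, with an SD of 0.20, and none of them overlapped with saline. Klf4 rose by 4.38 ± 0.82 on the log2 scale (adjusted p = 0.0395), but again the probe was well above background on only 2 of 4 saline arrays and entered the test through the colistin arrays. It was 1.02 with normexp (adjusted p = 0.0212), so the size for Klf4 is uncertain, and it lost its call without saline array 1, 2 or 3 or any 1 colistin array (adjusted p up to 0.104). Ier5, a relative of Ier2, gave 2.93 ± 0.55 (adjusted p = 0.0397), while its second probe gave -0.19 ± 1.1 (adjusted p = 0.929 over all probes), so the probes of Ier5 disagree. Ier5 kept its call only when saline array 1 was the array left out. The remaining riser was Cebpb, named after its value was seen because the count is small (1.84 ± 0.31, adjusted p = 0.0287). Cebpb kept its call without saline array 4 (adjusted p = 0.0399) and lost it without any 1 other array (0.0588 to 0.0894). The list's median was -0.11. Egr2 and Nr4a1 were not tested: Egr2 was well above background on 0 of 4 saline and 1 of 4 colistin arrays, and Nr4a1 on 2 of 4 in each group.

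Of 25 other early genes that do not encode transcription factors, 1 rose (4.0%) and 0 fell, with 4 at an unadjusted p under 0.05 and a median of 0.26 (limma). This was Zfp36, which encodes tristetraprolin, a protein that speeds the decay of early-response messages. Levels of Zfp36 were -0.75, -0.99, -2.06 and -1.91 on saline arrays 1 to 4 and 1.47, 0.51, 0.69 and 1.40 on colistin arrays 1 to 4, a clear separation. Zfp36 rose by 2.45 ± 0.43 on the log2 scale (adjusted p = 0.0309, and 0.053 to 0.0931 without saline array 2, 3 or 4 or any 1 colistin array). Btg2, an antiproliferative early gene, gave 3.89 ± 1.68 (adjusted p = 0.218), with saline array 4 at -7.15 and the other saline arrays between -1.28 and 1.17. Btg2 was 2.05 without saline array 4 (adjusted p = 0.153) and 1.30 without saline arrays 1 and 4 (0.244), and with normexp it passed at 2.31 (0.0389).

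Among 17 upstream kinase genes, 1 rose (5.88%, where 1 call is the least above 0 that so short a list can hold) and 0 fell, with 3 at an unadjusted p under 0.05 and a median of 0.47 (limma). Mapkapk3, which encodes a kinase activated by p38, rose by 3.05 ± 0.38 (adjusted p = 0.0103), with 4 saline levels of -2.16 to -1.01 and 4 colistin levels of 1.09 to 1.89. Each of the 8 fits without 1 array called it, at an adjusted p of at most 0.0405. Of 11 upstream factors and EGR corepressors 0 passed, with 2 at an unadjusted p under 0.05 and a median of 0.46. Srf, the serum response factor gene, gave 0.36 ± 0.95 (adjusted p = 0.840), and Nab2, a corepressor of EGR proteins, gave 0.46 ± 1.17 (adjusted p = 0.835). The sign of Srf changed without saline array 1 (-0.078) and that of Nab2 without saline array 4 (-0.35) or colistin array 2 (-0.34). Of 13 MAP kinase feedback genes 0 passed, with 3 at an unadjusted p under 0.05 and a median of -0.55. Dusp6, the ERK phosphatase gene, gave -0.03 ± 0.46 (adjusted p = 0.976), with signs that differed between settings.

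Of 12 textbook AP-1 target genes tested, 1 rose and 0 fell, with 3 at an unadjusted p under 0.05 and a median of 0.04 (limma). The riser was Spp1, the osteopontin gene (adjusted p = 0.00353), which also counts among tubule injury markers. With slide as a block Spp1 passed (adjusted p = 0.0292), while Fosl1 and Klf4 (0.0783 each), Ier5 (0.0605), Cebpb (0.0961), Zfp36 (0.134) and Mapkapk3 (0.0728) lost their calls. Of 10 ATF4 and CHOP stress genes 0 passed, with 3 at an unadjusted p under 0.05 and a median of 0.44. Atf4 itself gave 1.28 ± 0.51 (adjusted p = 0.194) and Ddit3, which encodes CHOP, gave 1.58 ± 0.46 (adjusted p = 0.120), the latter without overlap.

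The genes whose array pattern most resembled that of Fos were sought among the 12378 genes tested, after each group was centred on its mean. Likeness was the root mean square difference from Fos over the 8 arrays, in log2 units, where the median gene gave 1.78. The nearest were Gstm3 (0.596), Slc25a27 (0.650), Wbp1l (0.653), Tmem203 (0.740) and Gnb4 (0.782). Gstm3 was well above background on only 2 of 4 saline arrays and Slc25a27 on 0 of 4. Both entered the test through the colistin arrays alone, so their saline patterns partly or wholly reflect background. On colistin arrays 1 to 4, Gstm3 deviated from its group mean by -1.44, 1.36, -2.04 and 2.11, the same high and low pairs as Fos. Of the other members the nearest was Ier2 (1.22), which ranked 185th in likeness, then Jun (1.41), and Atf3 was farthest (2.67). A gene that did not vary at all would give 1.63, the root mean square of Fos itself. Fosb, Klf6 and Junb varied less than Fos, with own values of 0.12, 0.73 and 0.26. Their differences from Fos (1.70 to 1.77) therefore do not measure likeness. Dusp1 gave 1.81 but varied about as much as Fos, with an own value of 1.77, so the comparison with an unvarying gene does not apply to it. Fos was not well above background on 3 of the 8 arrays, the low colistin pair included, which limits any match to it.

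Levels of cell type markers differed between the groups beside these genes. Sums of signal relative to the array's 75th percentile were 33.4 to 53.1 in saline and 4.81 to 7.69 in colistin for 7 endothelial markers, of which 4 fell and 0 rose. For 5 thick ascending limb markers they were 31.7 to 76.9 and 1.1 to 5.98, and for 8 proximal tubule markers 516 to 832 and 205 to 328. Of the proximal tubule markers Slc22a6 and Aqp1 fell (-1.91 and -1.72), and the other 6 did not pass, with values from -1.45 (Slc13a3) to 1.25 (Cubn), those of Cubn and Slc5a2 (1.14) being positive. Bright probes weigh most in such sums. The 75th percentile was 156 to 197 on saline arrays and 271 to 317 on colistin arrays, which lowers the colistin sums relative to saline. The size of each difference between sums therefore depends on the scaling. Macrophage markers gave 6.22 to 13.4 and 1.45 to 5.60 over 7 genes. The sum over 8 injured tubule markers was 4.89 to 8.01 in saline and 28.5 to 59.8 in colistin; Spp1 and Havcr1 rose (log2 fold changes of 5.70 and 4.48), and the other 6 did not pass, with values from -0.53 (Krt18) to 2.15 (Timp1). Podocyte (5 genes), smooth muscle (6), principal and intercalated cell (6) and lymphocyte (4 on the array) markers had no overlap between groups in their sums and were lower in colistin. In each of these lists, and among macrophage and thick ascending limb markers, only 1 gene passed as lower and 0 as higher. Only 2 lymphocyte and 5 macrophage markers were bright enough to be tested. Of 3 neutrophil markers on the array 0 were well above background on all 4 arrays of either group, and their sums overlapped. The part of cell composition in the values of the immediate-early genes was not tested.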

How the data were processed

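Cy3-labelled cDNA from total kidney RNA was hybridised 1 sample per array. The authors deposited spot intensity tables; per the submitters' processing notes the software was Agilent Feature Extraction 10.5. The processed intensity, per the file headers, was corrected for background within the array, and arrays were not scaled to each other. The authors also deposited a series table of log2 values centred per probe; its array scale is not stated, and column differences in it followed those of the scanner values with a correlation of 0.9998 or above.

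Control spots and outlier spots (257 to 461 per array) were left out, and spots of a probe were averaged on the log2 scale. Each array's 75th percentile was subtracted. Probes entered the test if 3 or more of the 4 arrays in a group showed them well above background. Probes were named by RefSeq accession (GRCr8 table; 18643 of 30367 probes), and the brightest probe stood for a gene, which left 12378 genes. The groups were compared with lmFit and eBayes in limma 3.58.1 (R 4.3.3), with two-sided p-values adjusted by Benjamini-Hochberg over every gene tested, and calls were made under 0.05. The script was tested on simulated data with the spread of each gene. It called 0%, 26%, 46% and 62% of genes changed by 1, 2, 3 and 4 log2 units (50 genes each). Of 72 genes called there, 5 were unchanged. A gene that was not called may therefore still differ. The number of arrays limits the precision.

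The members and gene lists were chosen with earlier results of these data known. Named genes were all members, up to 2 passing genes per list and direction with the largest fold changes, 12 fixed genes and the 5 nearest to Fos. Alternatives were normexp (on median spot signal, since the tables used hold no mean signal, with offset 50), quantile normalization, 2 other filters, slide or replicate number as a block, the mean of probes, the series table, a variance trend and each array left out. Further settings were added after seeing the data: no scaling, and leaving out saline arrays 1 and 4. Numbers in the labels were not used as pairs in the main fit. Deviations of same-numbered arrays correlated between -0.020 and 0.012. Such values show no clear shared effect but cannot tell whether the samples were paired by design.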

Additional observations from a re-analysis of the deposited data

Results flagged for a closer look

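In 6 of 48 groups of 4 arrays examined (24 genes, 2 groups each) 1 array stood apart from the other 3 past Dixon's 95% critical value; chance gives about 1 in 20 groups. Egr1 was at -2.84 on saline array 3, against -7.33 to -6.91 on the other saline arrays. Fosl2 was at 1.52 on saline array 3, against -2.79 to -2.71. Srf was at 2.24 on saline array 4, against -2.0 to -1.41, and at -1.58 on colistin array 2, against 0.03 to 0.25. Atf4 was at 4.03 on saline array 4, against 2.06 to 2.30. Jund was at 6.40 on colistin array 3, against 7.08 to 7.19.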

How the results depend on the processing

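Over 168 values of the 9 members tested under the alternatives, 167 kept their sign, the exception being Fosb without scaling (0.59). Leaving out single arrays gave 78 to 254 genes called (59 to 189 higher, 19 to 65 lower), 1 to 2 members called and a member median of 1.84 to 2.99; the median was lowest without saline array 4. The number called was 98, 106, 110 and 78 without colistin array 1, 2, 3 or 4, and 179 or more without any 1 saline array. Normexp called 3349 genes, 682 higher and 2667 lower, with 4 members called, a member median of 1.75 and a median of all genes of -0.34. No scaling called 1043 genes, 1005 higher and 38 lower, with 2 members called, a member median of 3.30 and a median of all genes of 0.64. Requiring all 8 arrays above background called 118 genes higher and left 6 members to test. The variance trend called 147 genes lower and 2 members. With slide as a block 40 genes (35 higher, 5 lower) and 0 members passed in limma. At an unadjusted p under 0.05 that fit held 5 members and 2201 of all genes tested, 1135 of them lower. With the replicate block 5 genes (5 higher, 0 lower) and 0 members passed, with 6 members and 2249 genes, 1047 of them lower, at an unadjusted p under 0.05; Klf6 had an adjusted p of 0.0571 with slide and 0.0728 with replicate number as the block. Without saline arrays 1 and 4, 141 genes were called (113 higher, 28 lower), with 1 member called and a member median of 1.83. Signs turned for Dusp6 (0.097 with normexp, 0.75 without scaling, 0.077 without saline arrays 1 and 4, -0.24 to 0.26 with 1 array left out), Nab2 (-0.41 with normexp, -0.45 without saline arrays 1 and 4, -0.35 to 1.27 with 1 array left out) and Srf (-0.078 to 1.34 with 1 array left out). The cause of these shifts was not tested. Probes near background, Egr1, Fos, Fosl1 and Klf4 in saline, limit what their signals can show. Saline signals of Klf6 (6.51 to 40.0) were also low, as were those of Atf3 and Dusp1 on most saline arrays. The sizes of their fold changes are therefore uncertain. Of the 10 members 8 rest on 1 spot per array.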
